A study of Mus musculus with 9 samples.

Results

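Tbx20 and 7 of its paralogs (Tbx1, Tbx2, Tbx3, Tbx4, Tbx5, Tbx15 and Tbx18) were examined in adipose-derived stem cells (ASCs) of 3 fat depots. They were chosen by gene name, and each name matched a single row, giving 8 of the 54532 genes in the count table. RNA of ASCs grown in culture from C57BL/6 mice was extracted as total RNA and its mRNA was sequenced in bulk, with 3 libraries each from subcutaneous adipose tissue (Sub-ASCs), abdominal adipose tissue (Ab-ASCs) and perivascular adipose tissue (PVASCs). No group carried a transgene or received a differentiation stimulus, and the cells were between passages 3 and 6. The labels give neither the age of the mice nor whether the libraries of a group came from separate mice or cultures, so that p-values measure the spread between libraries, which may be technical. The study asked how ASCs differ between depots. It took up TBX20 because of its level in PVASCs and earlier reports that tied it to endothelial development and angiogenesis. The choice by level makes the counts of Tbx20 below a description and leaves the comparisons of its paralogs to be tested.

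T-box proteins are transcription factors that share a DNA-binding region, the T-box, and either activate or repress genes during organ formation. Tbx1, Tbx15, Tbx18 and Tbx20 belong to one branch of the family, and Tbx2, Tbx3, Tbx4 and Tbx5 to another. In the embryo several of them are best known from the heart and the limbs, whereas in fat Tbx15 is a known marker of the depot of origin and Tbx1 of beige adipocytes.

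How closely the 8 genes resemble each other matters for counting, because reads from a stretch shared by 2 genes cannot be assigned. The most alike stretch of 60 bases without a gap in the aligned coding sequences of the principal GENCODE M21 transcripts is therefore shown, read 5′ to 3′ on the coding strand, with the 34 positions that are identical in all 8 genes in capitals. The coordinates are on GRCm38 and enclose an intron, since the first 48 bases lie in one exon and the last 12 in the next in each of the 8 genes.
Tbx20, chr9:24769806-24770727, minus strand, exons 2 and 3: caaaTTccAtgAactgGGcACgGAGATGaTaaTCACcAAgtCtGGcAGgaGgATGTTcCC
Tbx1, chr16:18585125-18586583, minus strand, exons 1 and 2: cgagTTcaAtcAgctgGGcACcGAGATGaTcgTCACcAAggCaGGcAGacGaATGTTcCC
Tbx15, chr3:99308996-99313024, plus strand, exons 2 and 3: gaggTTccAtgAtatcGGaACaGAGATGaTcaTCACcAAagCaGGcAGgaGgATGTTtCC
Tbx18, chr9:87727454-87729508, minus strand, exons 2 and 3: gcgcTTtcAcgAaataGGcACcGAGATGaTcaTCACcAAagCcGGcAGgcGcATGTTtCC
Tbx2, chr11:85833454-85834631, plus strand, exons 1 and 2: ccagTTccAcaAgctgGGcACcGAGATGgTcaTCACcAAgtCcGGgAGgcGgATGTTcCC
Tbx3, chr5:119672357-119674037, plus strand, exons 1 and 2: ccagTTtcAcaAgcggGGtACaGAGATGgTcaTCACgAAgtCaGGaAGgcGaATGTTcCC
Tbx4, chr11:85890904-85898504, plus strand, exons 3 and 4: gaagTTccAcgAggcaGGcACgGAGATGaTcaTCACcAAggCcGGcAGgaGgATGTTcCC
Tbx5, chr5:119838743-119840778, plus strand, exons 3 and 4: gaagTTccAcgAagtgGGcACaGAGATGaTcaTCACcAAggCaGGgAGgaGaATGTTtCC
Within this stretch Tbx20 shared 50 of 60 bases with Tbx4, 49 with Tbx2 and Tbx5, 47 with Tbx1 and Tbx15, and 44 with Tbx3 and Tbx18. Over the whole aligned coding sequence Tbx20 was 47.1% to 53.1% identical to the other members, less than the most alike pairs, which were Tbx4 and Tbx5 (63.5%), Tbx2 and Tbx3 (63.2%) and Tbx15 and Tbx18 (61.9%). The longest exact run that Tbx20 shared with another member was 21 bases in the coding sequence. Over whole transcripts it was 39 bases, shared with Tbx15, and this run was made up of G and T apart from 2.56% of its bases.

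The libraries held 20524173 to 29881036 counted reads. A count of 3 reads in a library, used here as the limit below which a gene counts as not detected, came to between 0.0916 and 0.161 TMM-scaled CPM, the reads per library set to a common total. The biological coefficient of variation, the spread between libraries of a group beyond counting error, was 12.3% for Ab-ASCs, 5.69% for Sub-ASCs and 3.86% for PVASCs, and Ab-ASC replicate 1 stood apart, since without it the value for Ab-ASCs was 5.06%. Leaving that library out changed the calls of no member other than Tbx18. All 8 members passed the filter on low counts, Tbx20 through its PVASC libraries alone.

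Tbx20, which the developing heart needs and which has been tied to endothelial development, was counted with 394, 351 and 361 reads in the PVASC libraries. In the Sub-ASC and the Ab-ASC libraries it had 0 reads in all 6. The PVASC libraries were all above the others, at 11.8 ± 0.291 CPM (SD, n = 3). With 3 reads in a library taken as the limit, this level was at least 91.7-fold higher than that of Sub-ASCs, and for Ab-ASCs the bound was at least 73.3-fold. None of the 7 paralogs had this pattern, since each was counted in the libraries of Sub-ASCs as well as of PVASCs. In bulk RNA a smaller number of expressing cells cannot be told apart from less RNA in each cell.

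**Figure D1:**
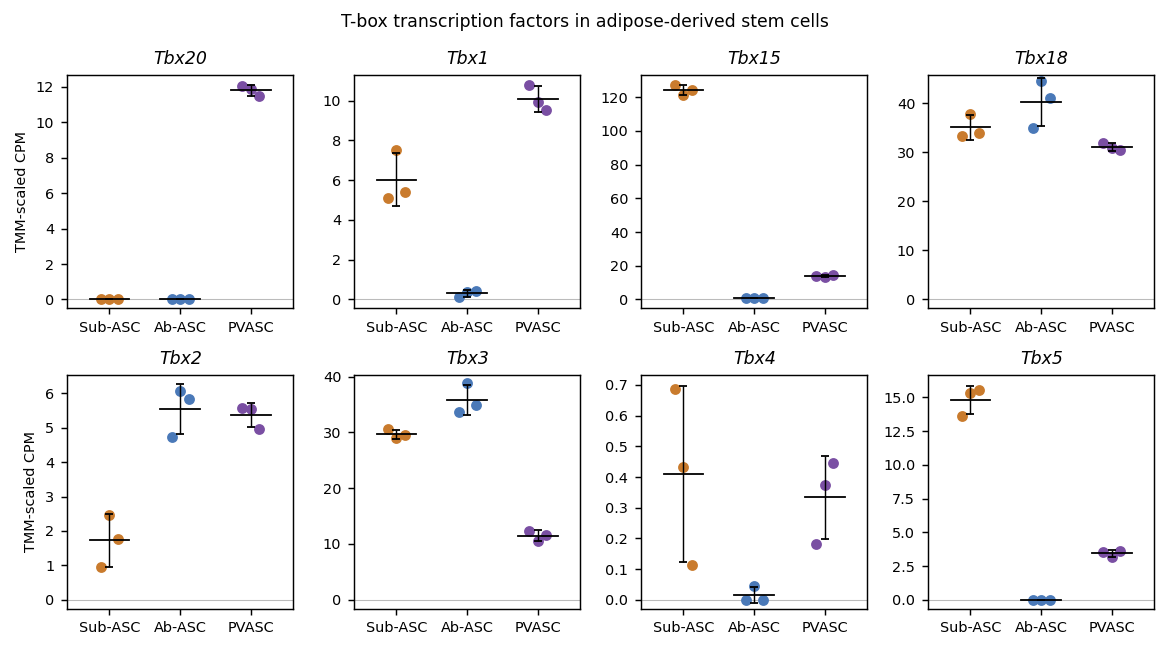
TMM-scaled CPM (linear axes, each with its own scale) of the 8 T-box members in each of the 9 libraries, with the mean as a line and the SD as an error bar (n = 3 per group). Tbx20 lies at 0 in Sub-ASCs and Ab-ASCs and at 11.8 CPM in PVASCs, Tbx15 is highest in Sub-ASCs at 124 CPM, and Tbx5 lies at 0 in Ab-ASCs.

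Among the members of the same branch, Tbx15, a regulator of skeletal development and of fat cell precursors, had the widest range. It was counted with 2962, 3094 and 3259 reads in Sub-ASCs, with 15, 20 and 21 in Ab-ASCs and with 446, 391 and 453 in PVASCs. Sub-ASCs were thus highest, PVASCs intermediate and Ab-ASCs lowest, with no overlap. The means were 124 ± 2.78, 0.876 ± 0.066 and 13.8 ± 0.589 CPM. In PVASCs Tbx15 was 9.03-fold lower than in Sub-ASCs (log2 fold change -3.17, SE 0.06, adjusted p = 2.73e-13) and 15.6-fold higher than in Ab-ASCs (3.96, SE 0.10, adjusted p = 3.44e-11). Tbx15 differed most between Ab-ASCs and Sub-ASCs, where it was 140-fold lower in Ab-ASCs (-7.13, SE 0.09, adjusted p = 1.32e-14).

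Tbx1, required for the pharyngeal arches and the outflow tract of the heart, had 119, 192 and 142 reads in Sub-ASCs, 2, 9 and 9 in Ab-ASCs, and 353, 293 and 300 in PVASCs. It shared with Tbx20 that every PVASC library was above every other library, but it was also expressed in Sub-ASCs. Tbx1 was 1.67-fold higher in PVASCs (10.1 ± 0.638 CPM) than in Sub-ASCs (6.02 ± 1.33 CPM), a log2 fold change of 0.74 (SE 0.16, adjusted p = 0.00104). Against Ab-ASCs (0.303 ± 0.169 CPM) it was 31.7-fold higher (4.98, SE 0.27, adjusted p = 1.83e-08), and Ab-ASCs were lower than Sub-ASCs (-4.24, SE 0.29, adjusted p = 4.20e-08).

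Tbx18, which marks the epicardium and mural cells of many organs, was far more even. It had 776, 965 and 893 reads in Sub-ASCs, 650, 1004 and 922 in Ab-ASCs and 1046, 910 and 957 in PVASCs. The means were 35.1 ± 2.48, 40.2 ± 4.92 and 31.1 ± 0.794 CPM. PVASCs lay below every library of the other groups, whereas Sub-ASCs and Ab-ASCs overlapped. The difference between PVASCs and Ab-ASCs passed the test (-0.37, SE 0.09, adjusted p = 0.00324), and that between PVASCs and Sub-ASCs did not (-0.18, 95% interval -0.37 to 0.02, adjusted p = 0.0919). The latter passed when the PVASC and Sub-ASC libraries were fitted alone (adjusted p = 0.0186) and when Ab-ASC replicate 1 was left out (adjusted p = 0.0158). For Ab-ASCs against Sub-ASCs the log2 fold change was 0.20 (SE 0.09, adjusted p = 0.0577), and passed without Ab-ASC replicate 1 (0.29, adjusted p = 6.68e-04), without Sub-ASC replicate 2 (0.26, adjusted p = 0.0299) and with no filter on low counts (0.21, adjusted p = 0.0365).

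In the other branch, Tbx2 and Tbx3 are repressors that hold back differentiation and senescence. Tbx3 had 712, 738 and 773 reads in Sub-ASCs, 627, 876 and 784 in Ab-ASCs, and 406, 311 and 363 in PVASCs. It was lowest in every PVASC library, at 11.5 ± 0.935 CPM, against 29.7 ± 0.801 in Sub-ASCs and 35.8 ± 2.75 in Ab-ASCs. PVASCs were 2.58-fold below Sub-ASCs (-1.37, SE 0.08, adjusted p = 1.13e-08) and 3.12-fold below Ab-ASCs (-1.64, SE 0.08, adjusted p = 9.19e-09). Ab-ASCs were slightly above Sub-ASCs (0.27, SE 0.08, adjusted p = 0.00656).

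Tbx2 had the opposite order between Sub-ASCs and PVASCs. Its reads were 22, 63 and 46 in Sub-ASCs, 88, 137 and 131 in Ab-ASCs, and 183, 164 and 156 in PVASCs. Sub-ASCs were lowest without overlap (1.72 ± 0.766 CPM), while PVASCs (5.37 ± 0.355) and Ab-ASCs (5.55 ± 0.727) overlapped. Tbx2 was higher than in Sub-ASCs both in PVASCs (1.62, SE 0.23, adjusted p = 4.07e-05) and in Ab-ASCs (1.68, SE 0.24, adjusted p = 3.58e-05). No difference between PVASCs and Ab-ASCs was detected (-0.05, 95% interval -0.49 to 0.38, adjusted p = 0.834).

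Tbx5, which specifies the forelimb and acts in the heart beside Tbx20, was the other member with no reads in a whole group. It was counted with 318, 390 and 408 reads in Sub-ASCs, with 0 in every Ab-ASC library and with 117, 93 and 114 in PVASCs. Sub-ASCs (14.8 ± 1.04 CPM) were above PVASCs (3.45 ± 0.26 CPM) without overlap. PVASCs were 4.29-fold lower than Sub-ASCs (-2.10, SE 0.11, adjusted p = 3.60e-08). Against the limit of 3 reads, Tbx5 in PVASCs was at least 21.4-fold higher than the level in Ab-ASCs (adjusted p = 7.78e-08) and at least 92.2-fold lower in Ab-ASCs than in Sub-ASCs (adjusted p = 2.66e-10).

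Tbx4, the hindlimb and lung counterpart of Tbx5, was close to the limit of detection. It had 16, 11 and 3 reads in Sub-ASCs, 0, 1 and 0 in Ab-ASCs, and 6, 11 and 14 in PVASCs. Ab-ASCs were lowest, and PVASCs and Sub-ASCs overlapped, with a log2 fold change of -0.28 (95% interval -1.48 to 0.93, adjusted p = 0.668). The ratio of PVASCs to Ab-ASCs was 21.03, with a counting interval from 3.51 to 857 (adjusted p = 0.00807), and that of Sub-ASCs to Ab-ASCs was 25.4, from 4.23 to 1038 (adjusted p = 0.00315). These intervals cover counting error only.

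**Figure D2:**
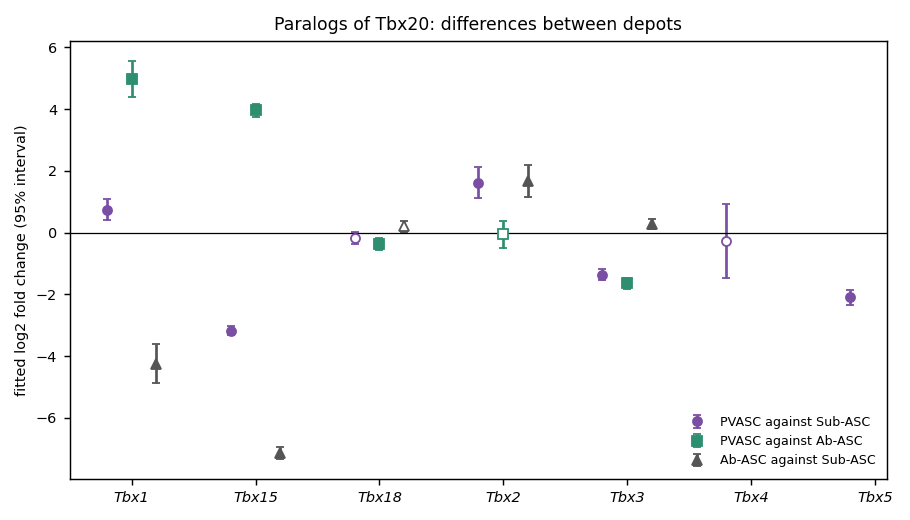
Fitted log2 fold changes with 95% intervals for the 7 paralogs of Tbx20 in the 3 comparisons, where filled symbols had an adjusted p under 0.05 and open symbols did not. Tbx15 reaches -7.13 between Ab-ASCs and Sub-ASCs while Tbx18 stays within -0.37 and 0.20, and Tbx4 and Tbx5 are left out of the comparisons with Ab-ASCs, where they had at most 1 read in a library.

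Counted over the 7 paralogs, with Tbx20 set aside because it was chosen for its pattern, 2 were higher in PVASCs than in Sub-ASCs (Tbx1 and Tbx2) and 3 were lower (Tbx3, Tbx5 and Tbx15). Of the 16526 genes tested, 70.4% differed in this comparison, 34.7% higher and 35.7% lower, which is close to the share of paralogs called. Against Ab-ASCs, 4 paralogs were higher in PVASCs (Tbx1, Tbx4, Tbx5 and Tbx15) and 2 were lower (Tbx3 and Tbx18), where 56.9% of all genes differed, 24.7% higher and 32.1% lower. Between Ab-ASCs and Sub-ASCs, 2 were higher (Tbx2 and Tbx3) and 4 were lower in Ab-ASCs (Tbx1, Tbx4, Tbx5 and Tbx15), where 75.3% of all genes differed, 37% higher and 38.3% lower. The median log2 fold change over the 7 paralogs was -0.28, 3.96 and -4.24 in these comparisons, against -0.01, -0.06 and -0.03 over all genes tested, with genes at 0 in a group set at their bound. The comparisons share libraries and are not independent of each other. The lists of other genes described below are to be read against the same shares of all genes.

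Levels of different genes were compared per kilobase (FPKM), from the listed gene length, which joins all annotated exons. In Sub-ASCs Tbx15 led with 32.5 ± 0.717 FPKM and made up 65.6% of the summed FPKM of the members. Tbx18 (7.28), Tbx3 (4.39), Tbx5 (3.11), Tbx1 (1.68), Tbx2 (0.466) and Tbx4 (0.118 FPKM) followed, and no neighbours in this order overlapped. In Ab-ASCs Tbx18 led with 7.97 ± 1.17 FPKM, 54.0% of the sum, and Tbx3 made up a further 34.3%. PVASCs had the most even make-up. Tbx18 led with 7.19 ± 0.196 FPKM, 36.3% of the sum, ahead of Tbx15 (4.01), Tbx1 (3.13), Tbx3 (1.90) and Tbx2 (1.62). Tbx20 came sixth in PVASCs, at 1.07 ± 0.0263 FPKM, above Tbx5 (0.806) and Tbx4 (0.107), again with no overlap between neighbours. Among the 27361 genes with reads in PVASCs, Tbx20 ranked 11944.

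The place of Tbx20 in PVASCs depended on the length used. Its listed length is 11997 bases, the longest of the members, whereas its coding sequence has only 1335 bases, the shortest. Per kilobase of the longest coding transcript (9091 bases) it stayed sixth, with 1.42 ± 0.0347 FPKM, and Tbx1 and Tbx15 overlapped. Per kilobase of coding sequence it was second, with 9.66 ± 0.236 FPKM, below Tbx18 (18.5) and above Tbx15 (8.32) and Tbx1 (7.52). The counts were not limited to coding sequence, so reads outside it also enter this value. Tbx20 has the smallest coding part of its transcript among the members, so this length raises its value most. Which transcripts the reads came from was not tested, since the counts are summed over each gene. The order of a gene's levels between depots is not touched by its length.

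**Figure D3:**
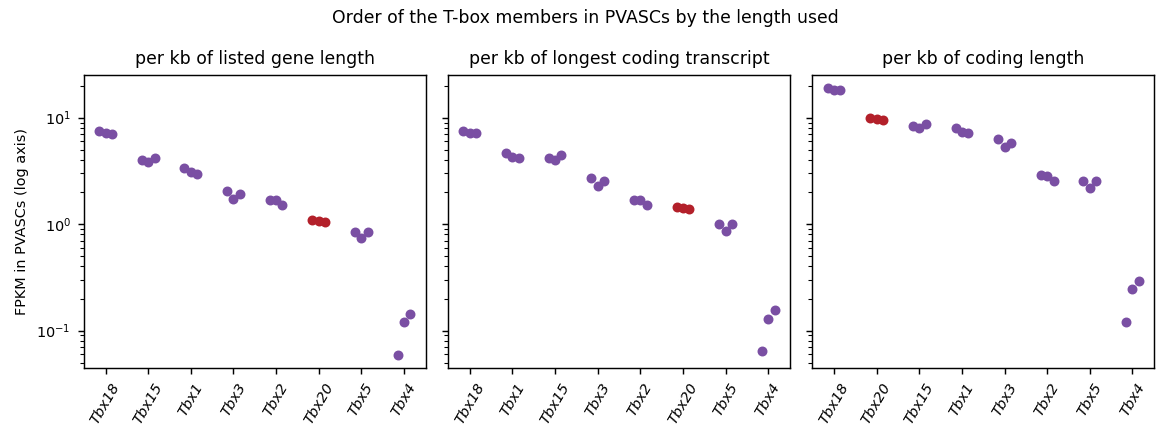
FPKM (log axis) of the 8 members in each of the 3 PVASC libraries, ordered by their mean, for 3 choices of gene length. Tbx20 (red) is sixth at 1.07 FPKM by the listed length and second at 9.66 FPKM by the coding length, while Tbx18 leads in every panel. The counts were not limited to coding sequence in any panel.

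The table holds 9 further T-box genes, of which Mga and Tbx6 passed the filter. Mga, a large protein that joins a T-box to the DNA-binding region of the MYC partners, had 2668, 2554 and 2769 reads in PVASCs, 2835, 3263 and 2726 in Sub-ASCs, and 506, 1249 and 1159 in Ab-ASCs. Ab-ASCs were lowest without overlap, and replicate 1 was lowest among them. Mga was higher in PVASCs than in Ab-ASCs (0.93, SE 0.19, adjusted p = 0.00143) and lower in Ab-ASCs than in Sub-ASCs (-1.39, SE 0.19, adjusted p = 2.98e-05). Against Sub-ASCs it was lower in PVASCs (-0.47, SE 0.19, adjusted p = 0.0398), and this call was lost without Sub-ASC replicate 1 (adjusted p = 0.0924), Sub-ASC replicate 2 (0.129) or PVASC replicate 1, 2 or 3 (0.115, 0.0887 and 0.0821).

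Tbx6, a gene of the paraxial mesoderm, had 23 reads in each Sub-ASC library, 2, 1 and 0 in Ab-ASCs, and 8, 13 and 10 in PVASCs. It was lower in PVASCs than in Sub-ASCs (-1.46, SE 0.35, adjusted p = 0.00244), and its ratio to Ab-ASCs was 7.01 in PVASCs (counting interval 2.19 to 35.8). Tbx6 passed the filter on low counts mainly through its Sub-ASC libraries, the group where it was highest. Of those not tested, Tbx21, the T-bet of T lymphocytes, had 5, 8 and 13 reads in Sub-ASCs and 0 in the other libraries. Eomes had at most 9 reads and Tbr1 at most 4 in a library. Tbx19 and Tbx22 were not counted in any library.

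**Figure D4:**
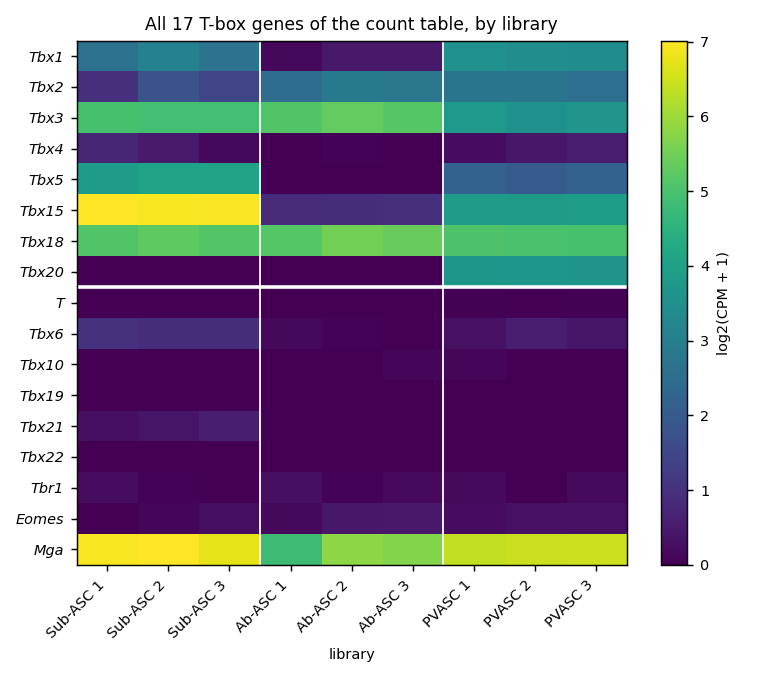
Colour shows log2(CPM + 1) of the 17 T-box genes (rows, with the 8 members above the white line) in the 9 libraries (columns). Tbx20 is filled in the PVASC columns only, at 11.8 CPM, Tbx5 is empty in the Ab-ASC columns, and Mga, Tbx3 and Tbx18 are filled in every column.

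Some of the members sit side by side in the genome. Tbx3 and Tbx5 are adjacent on chromosome 5 with 147.944 kb between them, yet Ab-ASCs counted 627 to 876 reads on Tbx3 and 0 on Tbx5. Tbx2 and Tbx4 flank Gm11444 on chromosome 11, and in Ab-ASCs Tbx2 had 88 to 137 reads where Tbx4 had at most 1. The nearest protein-coding genes to Tbx20, Dpy19l2 and Gm10181, had 0 reads in all 9 libraries. Wars2, which lies 1.195 kb from Tbx15, differed far less than Tbx15 between Ab-ASCs and Sub-ASCs (-0.44, adjusted p = 2.58e-04). Whether reads were counted by strand is not stated, so reads of Tbx3 and the antisense Tbx3os1, which overlap by 697 bases, cannot be told apart there. Tbx3os1 itself had 41, 25 and 39 reads in Sub-ASCs, 8, 9 and 6 in Ab-ASCs and 8, 4 and 7 in PVASCs. The same holds for Tbx18 and D030062O11Rik, whose gene spans overlap by 1976 bases, and for Tbx15 and Gm43120, which lies within the span of Tbx15 and had at most 8 reads.

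T-box proteins act on DNA together with GATA, NKX2-5, HAND and MEF2 factors, and of 10 such partners 7 were tested. In PVASCs 5 were higher and 1 lower than in Sub-ASCs, where 70.4% of all genes differed, with a median log2 fold change of 0.50. The lower one was Casz1, a zinc finger factor (0.438 ± 0.0399 CPM in PVASCs, 0.807 ± 0.193 in Sub-ASCs, adjusted p = 0.0221), and its call was lost with DESeq2 (adjusted p = 0.0548), with no filter, and without Sub-ASC replicate 1 (0.110) or PVASC replicate 1 or 2 (0.0759 and 0.0559). Gata4, a partner of Tbx5 and Tbx20 in the heart, had 365, 346 and 398 reads in PVASCs, 32, 34 and 38 in Ab-ASCs, and 1, 0 and 0 in Sub-ASCs. Its mean in PVASCs was 11.8 ± 0.758 CPM, and unlike Tbx20 it was also counted in Ab-ASCs, where it was 2.85 lower on the log2 scale (SE 0.14, adjusted p = 9.26e-09). Hand2, another heart and limb factor, was highest in PVASCs with 3.80 ± 0.594 CPM, against 2.19 ± 0.240 in Ab-ASCs and 0.484 ± 0.101 in Sub-ASCs. Gata5 was highest in Ab-ASCs, with 16, 23 and 26 reads against 7, 7 and 2 in PVASCs and 0 in Sub-ASCs. Nkx2-5, Hand1 and Isl1 were not tested, with at most 2, 2 and 6 reads in a library.

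Against Ab-ASCs, 3 partners were higher and 2 lower in PVASCs (median -0.01), and between Ab-ASCs and Sub-ASCs 5 were higher and 2 lower in Ab-ASCs (median 0.59), where 56.9% and 75.3% of all genes differed. One of the lower calls between Ab-ASCs and Sub-ASCs was again Casz1 (adjusted p = 0.0296), which was lost with DESeq2 (0.0626), with a replicate block (0.0544) and without Sub-ASC replicate 1 or Ab-ASC replicate 1 or 3. Mef2c, a factor of muscle and vessel development, was lower in Ab-ASCs (1.66 ± 0.600 CPM) than in PVASCs (11.8 ± 0.376, by 2.80 on the log2 scale) and Sub-ASCs (13.2 ± 0.442, by 2.96). The genes of the Groucho family (Tle1 to Tle4 and Aes), which includes corepressors through which T-box repressors can act, were all tested. Of these 5, 1 was higher and 4 were lower in PVASCs than in Sub-ASCs, 3 were higher than in Ab-ASCs with none lower, and 1 was higher and 3 were lower in Ab-ASCs than in Sub-ASCs, beside 70.4%, 56.9% and 75.3% of all genes called. Tle2 fell by 1.72 and Tle1 rose by 0.97 on the log2 scale in PVASCs against Sub-ASCs (adjusted p = 9.17e-09 and 3.35e-08). The medians of the list were -0.26, 0.26 and -0.73. Of the 4 lower calls, that of Tle3 (-0.14, adjusted p = 0.0423) was lost with DESeq2 (adjusted p = 0.0666) and without any one Sub-ASC or PVASC library. It was also lost with RLE size factors (0.0679), with no filter (0.175), with a replicate block (0.0536) and without Ab-ASC replicate 3 (0.0674). Of the 3 higher calls against Ab-ASCs, that of Tle4 (0.26, adjusted p = 0.0242) was lost without Ab-ASC replicate 1 (adjusted p = 0.0629) or 3, or without PVASC replicate 1 or 2.

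Genes that have been described as targets of T-box factors moved in both directions. Of 16 such genes 13 were tested. In PVASCs 5 were higher and 6 lower than in Sub-ASCs (median -0.26), 5 were higher and 4 lower than in Ab-ASCs (median -0.13), and in Ab-ASCs 4 were higher and 5 lower than in Sub-ASCs (median -0.15). These shares, beside 70.4%, 56.9% and 75.3% of all genes called, rest in part on calls that did not hold. Against Sub-ASCs the lower call of Cdh1 was lost without Sub-ASC replicate 2 or 3 or PVASC replicate 1 (adjusted p up to 0.0997), whereas Prokr1 and Bmp2, not called, passed in some of the alternatives. Against Ab-ASCs the lower call of Gja5 (adjusted p = 0.0442) was lost without Ab-ASC replicate 2 (0.139) or 3, PVASC replicate 1 or 2, or Sub-ASC replicate 1. Flt4, the VEGFR3 of lymphatic and sprouting vessels, had 1679, 1663 and 1705 reads in PVASCs, 202, 243 and 286 in Sub-ASCs, and 179, 202 and 174 in Ab-ASCs. PVASCs were highest without overlap, by 2.47 on the log2 scale against Sub-ASCs (SE 0.10, adjusted p = 1.53e-10) and by 2.62 against Ab-ASCs (SE 0.10, adjusted p = 7.44e-10). Cdkn2a, a cell cycle inhibitor that Tbx2 and Tbx3 repress, was also highest in PVASCs, with 46.6 ± 2.91 CPM against 6.59 ± 0.211 in Sub-ASCs and 6.26 ± 1.46 in Ab-ASCs.

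Other genes of this list had other orders. Mycn was highest in Ab-ASCs (7.13 ± 0.230 CPM), lower in PVASCs (3.36 ± 0.606) and lowest in Sub-ASCs (0.123 ± 0.0879). Dll4, a Notch ligand, had 93, 137 and 133 reads in Sub-ASCs, 0, 7 and 1 in Ab-ASCs, and 6, 9 and 9 in PVASCs. Gja5, the connexin of arteries and of the atria, was likewise highest in Sub-ASCs with 35, 28 and 62 reads, against 2, 7 and 5 in Ab-ASCs and 1, 0 and 3 in PVASCs. Nppb, a natriuretic peptide gene, had 3, 0 and 0 reads in Sub-ASCs, 29, 28 and 22 in Ab-ASCs and 28, 32 and 31 in PVASCs, so that the ratio of PVASCs to Sub-ASCs was 24.3 (counting interval 8.05 to 120). Cdh1, the epithelial cadherin, was highest in Ab-ASCs at 1.62 ± 0.311 CPM, against 0.130 ± 0.0774 in Sub-ASCs and 0.0219 ± 0.0190 in PVASCs. Prok2, Fgf8 and Nppa had at most 3 reads in any library and were not tested.

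Tbx15 is a classical mark of fat depots, and 11 further genes of that kind were all tested. In PVASCs 4 were higher and 7 lower than in Sub-ASCs (median -1.38), and 4 were higher and 6 lower than in Ab-ASCs (median -0.72). In Ab-ASCs 5 were higher and 6 lower than in Sub-ASCs (median -0.45). The numbers of genes called, 11, 10 and 11 of 11, stood beside 70.4%, 56.9% and 75.3% of all genes, and the higher call of Nr2f1 against Ab-ASCs was lost without Ab-ASC replicate 3 (adjusted p = 0.0595) or PVASC replicate 1 (0.121) or 3 (0.0535). Shox2 had the same order as Tbx15, with 47.3 ± 0.290 CPM in Sub-ASCs, 6.24 ± 0.328 in PVASCs and 0.211 ± 0.117 in Ab-ASCs. Sfrp2 was highest in Sub-ASCs (315 ± 3.50 CPM) and low in both PVASCs (4.07 ± 0.116) and Ab-ASCs (2.17 ± 0.327). Hoxa10, a posterior HOX gene, was likewise highest in Sub-ASCs and was lowest in PVASCs, with 18.5 ± 0.894 CPM in Sub-ASCs, 1.12 ± 0.164 in Ab-ASCs and 0.361 ± 0.0544 in PVASCs. Another posterior gene, Hoxc9, was lowest in PVASCs, by 3.47 on the log2 scale against Sub-ASCs (adjusted p = 4.69e-12) and by 2.87 against Ab-ASCs (adjusted p = 2.39e-10).

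The study followed smooth muscle and endothelial differentiation of PVASCs, and 9 genes from that work were examined. Against Sub-ASCs all 9 were higher in PVASCs (median 2.17), against Ab-ASCs 5 were higher and 3 lower (median 0.66), and in Ab-ASCs 6 were higher and 3 lower than in Sub-ASCs (median 0.39), beside 70.4%, 56.9% and 75.3% of all genes called. Of the lower calls in Ab-ASCs, that of Kdr (-0.30, adjusted p = 0.0163) was lost without Sub-ASC replicate 2 or 3 or Ab-ASC replicate 3. Cnn1, a contractile gene, was 8.99 higher on the log2 scale in PVASCs than in Sub-ASCs (adjusted p = 4.53e-13) and 0.60 lower than in Ab-ASCs (adjusted p = 1.88e-04). Pecam1, the endothelial CD31, was 1.99 higher than in Sub-ASCs (adjusted p = 2.11e-11) and 3.85 higher than in Ab-ASCs (adjusted p = 3.05e-12).

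Markers of other cell types moved between the same groups as Tbx20. The 6 endothelial markers summed to 716 to 724 CPM in PVASCs, 169 to 183 in Sub-ASCs and 62.9 to 64.6 in Ab-ASCs, and none was at 0 in a group. In PVASCs 5 of them were higher and 1 lower than in Sub-ASCs, and all 6 were higher than in Ab-ASCs, where 70.4% and 56.9% of all genes differed. The lower one was Tek, the TIE2 receptor, with 14.8 ± 0.493 CPM in PVASCs, against 46.0 ± 3.54 in Sub-ASCs. Emcn, endomucin, had 279 ± 6.05 CPM in PVASCs, against 20.2 ± 1.44 in Sub-ASCs and 10.6 ± 1.29 in Ab-ASCs. The calls of Vwf, the von Willebrand factor, were the least firm (2.46 ± 0.487 CPM in PVASCs, against 1.74 ± 0.227 in Sub-ASCs and 1.74 ± 0.123 in Ab-ASCs). Against Ab-ASCs (adjusted p = 0.0448) its call was lost with DESeq2 (0.0571), with no filter, with a replicate block and without any one of 7 libraries (up to 0.162 without PVASC replicate 1), and against Sub-ASCs (0.0352) it was lost without Sub-ASC replicate 1 (0.107) or 3 (0.101) or PVASC replicate 1 (0.128) or 2 (0.0957). The 5 Schwann cell markers summed to 22.9 to 26.0 CPM in PVASCs, 11.7 to 13.5 in Sub-ASCs and 3.78 to 4.90 in Ab-ASCs. Of the 4 tested, 2 were higher and 1 lower in PVASCs than in Sub-ASCs and 3 were higher than in Ab-ASCs. Among them Sox10 had 370, 384 and 360 reads in PVASCs and at most 23 in any other library. Mbp, the myelin basic protein, ran the other way, with 3.13 ± 0.341 CPM in PVASCs, against 9.28 ± 1.33 in Sub-ASCs (adjusted p = 9.56e-07) and 3.601 ± 0.584 in Ab-ASCs, and S100b was not called against Sub-ASCs (0.46, adjusted p = 0.240). The study typed PVASCs by flow cytometry as lacking the surface protein of Pecam1, and whether the sequenced cultures had been sorted is not stated. The part of endothelial or Schwann cells in the counts of Tbx20 was not tested.

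The summed mural and mesothelial markers were highest in Ab-ASCs, though not every gene of these lists was. The 6 mural markers summed to 4387 to 5447 CPM in Ab-ASCs, 2737 to 2884 in PVASCs and 65.9 to 71.2 in Sub-ASCs, and most of the sum in Ab-ASCs was Acta2 (4432 ± 537 CPM, against 2503 ± 80.3 in PVASCs). Rgs5, a pericyte gene, was highest in PVASCs with 22.6 ± 0.787 CPM, against 6.26 ± 0.402 in Sub-ASCs and 0.751 ± 0.287 in Ab-ASCs, and Cspg4, the NG2 of pericytes, was likewise highest there with 72.5 ± 1.57 CPM, against 31.8 ± 0.956 in Ab-ASCs and 1.47 ± 0.249 in Sub-ASCs. The 10 mesothelial markers summed to 122 to 132 CPM in Ab-ASCs, 48.0 to 49.8 in PVASCs and 2.83 to 3.05 in Sub-ASCs, where Upk1b, Lrrn4 and Muc16 were at 0. All 6 mural markers and 7 of the 8 mesothelial markers tested were higher in PVASCs than in Sub-ASCs, with none lower, whereas against Ab-ASCs 4 and 7 were lower and 2 and 1 higher, beside 70.4% and 56.9% of all genes called. Krt19 was the mesothelial marker above Ab-ASCs in PVASCs (14.7 ± 0.367 against 4.39 ± 0.397 CPM), and Krt8 was lower by 6.11 on the log2 scale (adjusted p = 4.93e-09). The lower call of Krt18 against Ab-ASCs (adjusted p = 0.0113) was lost with DESeq2 (0.175) and without PVASC replicate 1 (0.0552). The part of mural or mesothelial cells in the counts of Tbx20 was not tested.

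The 8 cardiomyocyte markers summed to only 1.34 to 3.15 CPM in any library, and Myh6, the myosin that defines these cells in the mouse, had 0 reads in all 9. Of the 2 tested, Tnnt2 was higher and Tnni3 lower in PVASCs than in Sub-ASCs, and neither was called against Ab-ASCs, although Tnnt2 passed without Ab-ASC replicate 1 (0.74, adjusted p = 0.0332), when only the groups compared were fitted (0.66, adjusted p = 0.0444) and with no filter (0.58, adjusted p = 0.0496). The 5 haematopoietic markers summed to 289 to 298 CPM in PVASCs, 234 to 239 in Sub-ASCs and 299 to 389 in Ab-ASCs. Most of each sum was Lyz2 (246 to 251 CPM in PVASCs, 160 to 164 in Sub-ASCs). In PVASCs 2 were higher than in Sub-ASCs and 3 lower (Ptprc, Cd68 and Adgre1). Against Ab-ASCs 1 was higher and 2 were lower, where 70.4% and 56.9% of all genes were called in these 2 comparisons. The 6 ASC markers were counted in every group and summed to 5893 to 5948 CPM in Sub-ASCs, 2147 to 2230 in PVASCs and 1334 to 1456 in Ab-ASCs. In PVASCs 2 of them were higher and 4 lower than in Sub-ASCs, and 4 were higher and 2 lower than in Ab-ASCs. Ly6a, the Sca1 by which mouse ASCs are sorted, had at least 48821 reads in a Sub-ASC library, 3425 in a PVASC library and 443 in an Ab-ASC library. The 2 higher in PVASCs than in Sub-ASCs were Thy1 and Eng, the CD90 and CD105 that the study also used to type PVASCs. Thy1 had 869 to 904 CPM in PVASCs, 321 to 344 in Sub-ASCs and 211 to 258 in Ab-ASCs. Eng had 321 to 340, 104 to 113 and 134 to 154 CPM.

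**Figure D5:**
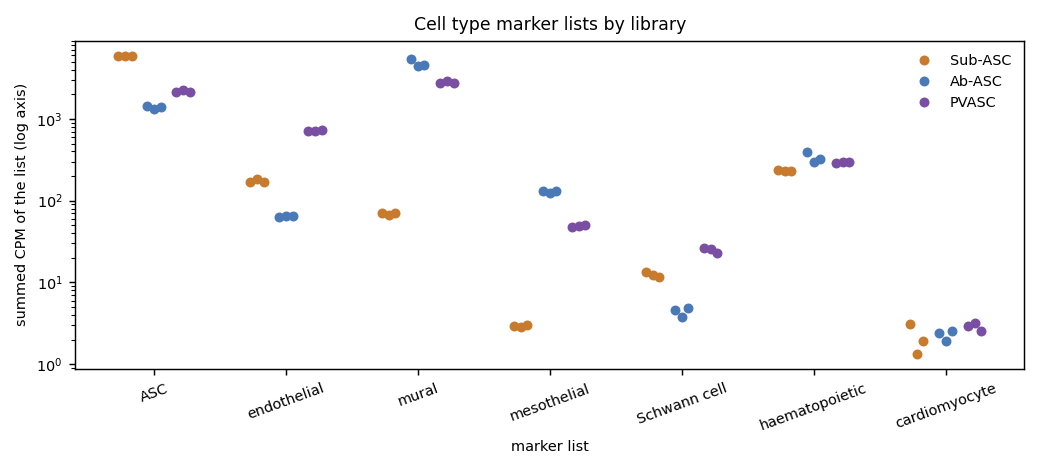
Summed CPM (log axis) of 7 marker lists in each of the 9 libraries, coloured by group. The sums of endothelial and Schwann cell markers are highest in PVASCs (716 to 724 and 22.9 to 26.0 CPM), those of mural and mesothelial markers are highest in Ab-ASCs, and cardiomyocyte markers stay at or below 3.15 CPM.

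For each member the 3 genes with the most similar log2 CPM over the 9 libraries were listed, by Pearson r. These correlations describe 9 libraries in 3 groups and mostly reflect the differences between groups. For Tbx20 they were Lin28b (r = 0.9999), 3110039M20Rik (0.999) and Slc6a3 (0.999), which like Tbx20 had a mean of 0 CPM in Sub-ASCs and Ab-ASCs. Their own means in PVASCs were 0.469, 3.81 and 0.481 CPM, not set per length and so not to be ranked against Tbx20. For Tbx15 they were Kng2, Serpina3g and Galnt13 (0.999 each), and for Tbx5 Masp1, Matn2 and AC149090.1 (0.998 each). Dock4, Prex2 and Samsn1 were most like Tbx1 (0.995 to 0.998), Slc25a44, Wdfy1 and Nrp2 most like Tbx3 (0.993 to 0.994), and Dusp18, Gm26586 and Lsm5 most like Tbx2 (0.979 to 0.987). The lowest values were found for the even Tbx18 (Tram1, Yipf5 and Atg3, 0.9505 to 0.982) and the sparse Tbx4 (Gpr4, Tbc1d16 and Gpr137b-ps, 0.947 to 0.959).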

How the data were processed

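Bulk RNA-seq of 9 libraries was analysed, grouped by the labels. The authors deposited raw read counts per gene, with gene lengths and positions. The submitters' processing notes name CASAVA 1.8, Bowtie 0.12.2, featureCounts 1.5.0-p3, mm8 and mm10, with no role or strand setting. The positions of all 8 members were those of GENCODE M21 (GRCm38).

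Counts were filtered by filterByExpr, scaled by TMM and tested with edgeR 4.0.16 in R 4.3.3, using the quasi-likelihood F-test with all 9 libraries in 1 fit. P-values were adjusted by Benjamini-Hochberg over 16526 genes, with a threshold of 0.05. Genes with 3 reads or fewer summed over the libraries of a group were given as bounds or as ratios with exact binomial 95% intervals. FPKM was calculated from counts, length and library total. Coding sequences were aligned with MAFFT 7.526. The procedure was tested on simulated data. The members and gene lists were chosen with earlier results of these data known. Named genes were all members, other T-box genes with over 3 reads in a library, list members with the largest called changes in any of the comparisons, neighbours, and the 3 most similar genes for each member. Genes of lists whose calls were lost or gained and genes below the filter were named after their values were seen. So were Rgs5, Cspg4, Krt19, Tek, Mbp, S100b, Myh6, Thy1, Eng, Lyz2, Ptprc, Cd68 and Adgre1. One gene of the target list is counted but not reported here. Alternatives were DESeq2 1.42.0, RLE size factors, no filter, at least 10 reads in every library, only the groups compared, a replicate block, a minimum size of 1 for the log2 fold change, and fits without each library. The other 2 length choices were added after seeing the data. Same-numbered libraries were not shown to be paired, since their deviations from group means correlated between -0.0514 and 0.0950.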

Additional observations from a re-analysis of the deposited data

How the results depend on the processing

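Counts of members called were stable except under the stricter filter. Requiring at least 10 reads in every library left 4 members to test and 3 called in each comparison, where 6, 7 and 6 of 8, Tbx20 included, were called by default, because Tbx1, Tbx4, Tbx5 and Tbx20 were no longer tested. Leaving out each library in turn gave 6 to 7 members for PVASCs against Sub-ASCs, 7 in each case against Ab-ASCs, and 6 to 7 for Ab-ASCs against Sub-ASCs. With a replicate block the counts were 6, 7 and 6, and the block changed no call of a member. Same-numbered libraries were not shown to be paired, with correlations of deviations between -0.0514 and 0.0950. Per kilobase of coding sequence, a choice made after seeing the data, Tbx20 ranked 2 in place of 6 among the members in PVASCs. The counts used for that rank were not limited to coding sequence, which raises Tbx20 most. Of 325 recomputed log2 fold changes of the other 7 members, 317 kept their side of the threshold, 5 of Tbx18 gained it, and Tbx1 (PVASCs against Sub-ASCs), Tbx18 (PVASCs against Ab-ASCs) and Tbx3 (Ab-ASCs against Sub-ASCs) lost it when calls also needed a log2 fold change of 1 or more in size. That requirement also lowered the share of all genes called from 70.4% to 32.2% for PVASCs against Sub-ASCs and from 56.9% to 15.4% against Ab-ASCs, where the higher share of the calls went from 43.5% to 65.6%, and from 75.3% to 37.8% for Ab-ASCs against Sub-ASCs. Of 3664 log2 fold changes of other listed genes, 132 lost and 20 gained significance. Without any filter the shares of all genes called were 41.5%, 31.8% and 44.1%, because more genes entered the test. Of 624 counts for the other lists, 39 moved by over 1.5 times. No called direction reversed. Depth limits Tbx4 most, at no more than 16 reads in a library.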
